A study of Bos taurus with 8 samples.

Results

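Heat shock proteins and chaperones were followed in bovine whole blood kept with or without a phenolic extract of cowpea leaf. Genes were taken by their symbol in the deposited table when it began with HSPA to HSPH, HSP and a digit, or DNAJA, DNAJB or DNAJC. The symbols of HSF1 and HSF2, of the chaperonin subunits TCP1 and CCT2 to CCT8 with their copies, and of BAG1 to BAG6 were also taken. This gave 91 of 16966 named genes, read by 215 probes, each a 60-base oligonucleotide on the array. Of these, 37 genes (49 probes) could be read reliably.

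The 4 CPE samples were fresh blood given 10 µg/ml of the extract, and the 4 CONTROL samples were blood left untreated. Per the labels, both groups were incubated alike for 30 min (37 °C, 5% CO2). All blood came from 5 clinically healthy female Holstein Friesian cows that had received a probiotic for 60 days, so both groups share that feeding. The labels put the RNA integrity number of each sample above 7. Each sample was hybridised to 1 single-colour array (Cy3), and the series text speaks of RNA pooled by group. The arrays may thus be repeats of 1 pool, and the SE and p values below measure how arrays vary rather than how cows vary. CPE and CONTROL lay on different slides, scanned on different dates and read with different versions of the spot grid, so slide and group cannot be told apart.

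Chaperones bind unfolded or newly made proteins and keep them from aggregating. HSP70 proteins take up clients that J-domain proteins bring, and HSP110 and BAG proteins help them release nucleotide. HSP90 acts later, on kinases and receptors that are nearly folded. The ring-shaped chaperonins, TRiC in the cytosol and HSPD1 with HSPE1 in mitochondria, enclose their clients, and small heat shock proteins hold them. Under heat or oxidation the transcription factor HSF1 turns on many of these genes, and unfolded protein in the endoplasmic reticulum (ER) turns on an ER set that includes HSPA5, HSP90B1 and DNAJC3.

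Large connected areas of every array were dim, with 43.2% to 50.3% of spots lit on the CPE arrays and 31.9% to 40.8% on the CONTROL arrays. A spot was called lit when its surroundings were bright, and reliable when it was lit and well above background on all 8 arrays and never marked as an outlier by the scanner software. A level is log2 processed signal above the array's 75th percentile over the spots lit on all 8 arrays. A change is the CPE mean minus the CONTROL mean. Levels of different probes were not compared as amounts of transcript. They were ranked to take each gene by its probe with the highest mean. They were also combined in differences between probes of a gene, per-array medians and sums of markers. Reliable probes of all kinds numbered 7151, and their median change was 0.0020. Across them, arrays of 1 group correlated with r = 0.970 to 0.998, and arrays of different groups with r = 0.918 to 0.970. CPE array 3 stood apart from the other CPE arrays at many chaperone probes, and CONTROL array 4, the dimmest array, from the other CONTROL arrays at fewer. Values are therefore given array by array.

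Of the 49 reliable chaperone probes, 21 were called higher in CPE and 7 lower (limma, adjusted p under 0.05 over all probes), or 42.9% and 14.3%. Over all 7151 probes the shares were 23.5% higher and 25% lower. Taking each gene by its probe with the highest mean, 13 of 37 genes were called higher and 6 lower, against 24.4% and 22.8% of all 4798 genes. The median change of the 37 genes was 0.12, and that of all genes was 0.025. The per-array median level of the 37 genes was 0.90, 0.96, 0.74 and 1.08 on the CPE arrays and 0.74, 0.83, 0.78 and 0.89 on the CONTROL arrays, so the groups overlapped in this summary. The CPE and CONTROL arrays did not overlap at 27 of the 49 probes (55.1%), where the share over all probes was 50.1%. Without CONTROL array 1 or CONTROL array 2, 8 genes were called higher in place of 13, and without CPE array 3, 16 were called higher and 7 lower. Of the 19 genes called, 12 were called in each of the 8 fits that left out 1 array.

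**Figure D1:**
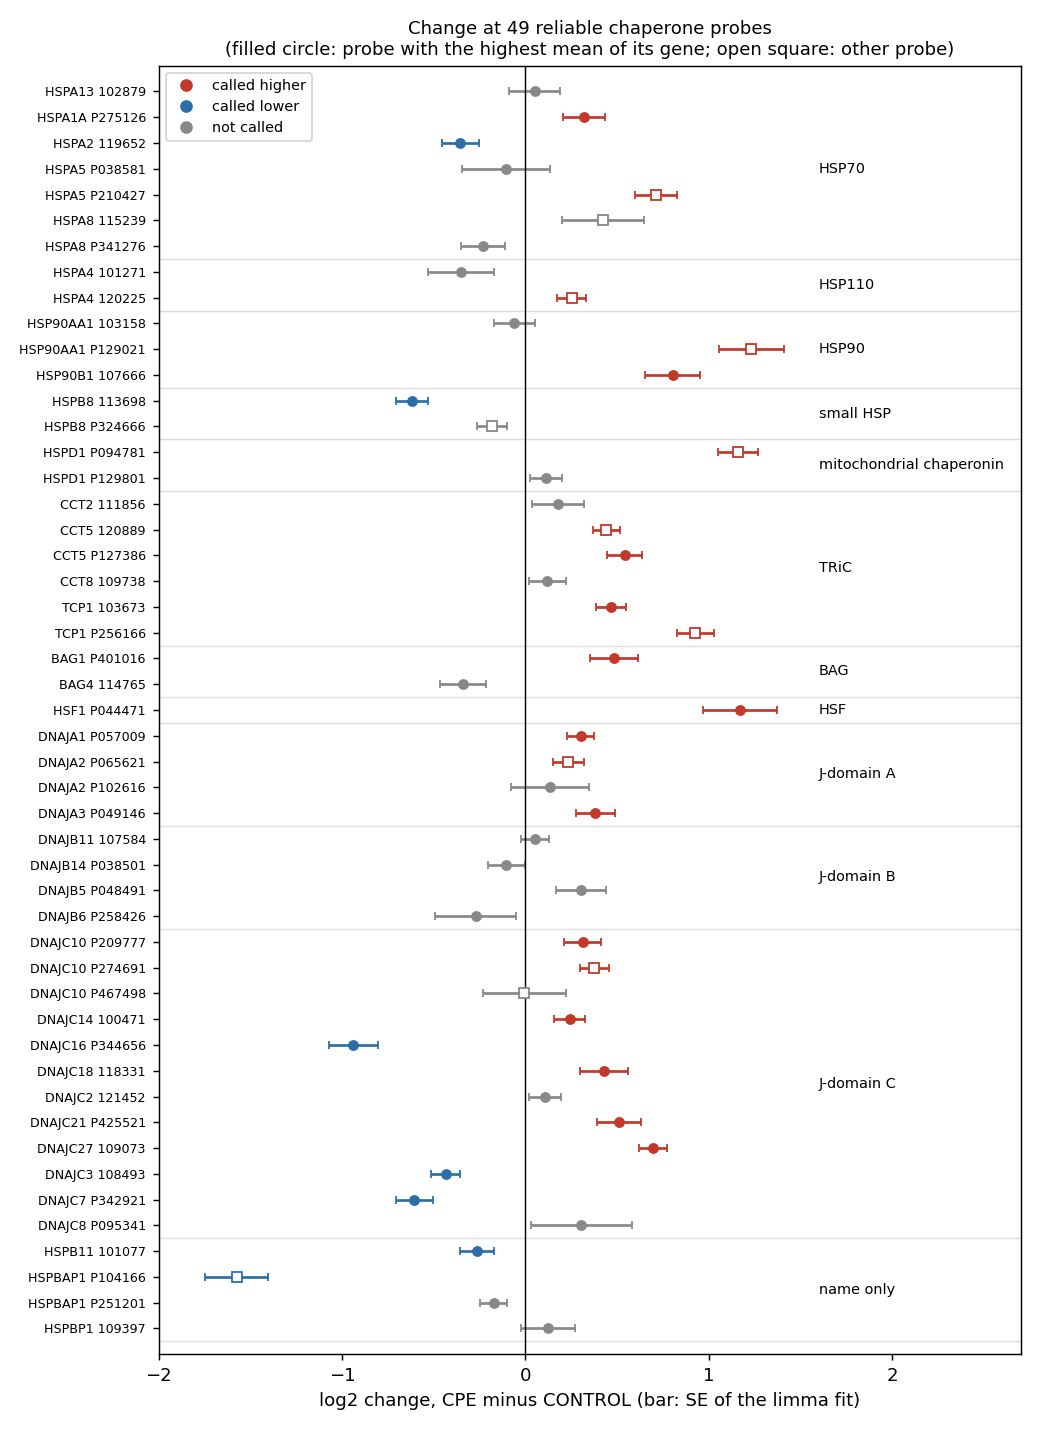
Log2 change (CPE minus CONTROL, x axis) with its SE at each of the 49 reliable chaperone probes, grouped by class. Filled circles are the probe with the highest mean of its gene and open squares the other probes; red marks a call higher, blue lower and grey neither. HSP90, TRiC and HSF1 lie to the right of 0 except for 1 probe of HSP90AA1 near it, whereas HSPB8, DNAJC16, DNAJC7 and DNAJC3 lie to the left.

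The cytosolic HSP90 gene HSP90AA1, whose protein is the stress-inducible form, gave 2 different readings. At probe A_73_P129021 its levels were 4.35, 4.55, 5.05 and 4.57 in CPE and 3.48, 3.59, 3.52 and 3.00 in CONTROL. Every CPE array lay above every CONTROL array, and the change was 1.23 (SE 0.18, 2.35-fold, adjusted p = 0.00065). At probe A_73_103158 the levels were 4.55, 4.64, 4.20 and 4.55 in CPE and 4.48, 4.54, 4.50 and 4.66 in CONTROL. There the groups overlapped, with a change of −0.060 (SE 0.11, adjusted p = 0.679). Both probes carry the same transcript accession, NM_001012670. The first 30 bases of each, from the deposited table, are shown because they read different stretches of what the table calls 1 transcript.
HSP90AA1 A_73_P129021: atactttgtaaagcttccatcccctgtagt
HSP90AA1 A_73_103158: aaggtaacttggagcaagttttgtgaatgg

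Both probes lie on the same array, so their difference does not depend on scaling between arrays; only its change between groups is read. A_73_103158 minus A_73_P129021 was 0.21, 0.091, −0.85 and −0.019 on the CPE arrays and 1.00, 0.95, 0.98 and 1.67 on the CONTROL arrays. The 2 probes thus changed by unequal amounts, by 1.29 (SE 0.26, limma adjusted p = 0.0087 over 1394 such pairs of all genes). Over those 1394 pairs, 27% had a called difference. The surroundings of the 2 spots also differed. The 61 nearest spots lit on all 8 arrays moved by 0.33 between groups around A_73_P129021 and by −0.30 around A_73_103158. After subtracting the local median of those neighbours (local centring), the changes were 0.90 and 0.24, where the median of all probes was 0.12. The neighbours included lit spots that were not well above background.

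HSP90B1, the HSP90 of the ER, rose. Its levels were 3.47, 3.85, 4.05 and 3.97 in CPE and 3.02, 3.05, 3.27 and 2.78 in CONTROL. No CPE array was as low as any CONTROL array, and the change was 0.80 (SE 0.15, 1.75-fold, adjusted p = 0.00245). Its neighbours moved by 0.32, and the change was 0.48 after local centring, where the median of all probes was 0.12. The other cytosolic HSP90 gene, HSP90AB1, had 6 probes and no reliable one.

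In the HSP70 class, HSPA5 (BiP), the main HSP70 of the ER, was called at 1 of 2 probes. A_73_P210427 had levels of 0.37, 0.21, 0.60 and 0.24 in CPE and −0.30, −0.31, −0.24 and −0.56 in CONTROL, without overlap. Its change was 0.71 (SE 0.11, 1.64-fold, adjusted p = 0.00117). A_73_P038581 had levels of 1.37, 1.47, 0.32 and 1.47 in CPE and 1.20, 1.29, 1.23 and 1.32 in CONTROL. CPE array 3 fell far below the other 3 CPE arrays there, and the change was −0.11 (SE 0.24, adjusted p = 0.739). Without CPE array 3 it was 0.17 (adjusted p = 0.0498). The 2 changes differed by −0.82 (SE 0.33), which did not pass the test (adjusted p = 0.0954). The neighbours of A_73_P038581 moved by −0.48 and those of A_73_P210427 by −0.049. Both 60-base probes are printed whole, since their letters share no run longer than 6 bases.
HSPA5 A_73_P210427: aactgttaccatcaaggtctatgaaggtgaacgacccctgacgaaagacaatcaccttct
HSPA5 A_73_P038581: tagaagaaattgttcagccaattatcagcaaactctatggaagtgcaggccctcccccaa

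HSPA1A, the heat-inducible cytosolic HSP70, rose little. Levels were −0.28, 0.061, −0.42 and −0.29 in CPE and −0.60, −0.60, −0.60 and −0.40 in CONTROL. CPE array 3 lay just below CONTROL array 4, so the groups overlapped, and the change was 0.32 (SE 0.11, 1.25-fold, adjusted p = 0.0458). This call was lost in 6 of the 8 fits that left out 1 array. HSPA1A has a near-identical copy in the genome, and which of them the probe reads was not tested.
HSPA1A A_73_P275126: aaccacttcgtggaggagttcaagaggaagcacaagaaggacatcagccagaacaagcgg

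A second probe, A_73_119652, carries the symbol HSPA2 while its description in the same table names HSPA1A. It fell, with levels of −2.37, −2.12, −2.37 and −2.29 in CPE and −1.86, −1.92, −1.80 and −2.14 in CONTROL (change −0.36, SE 0.10, adjusted p = 0.0178). The groups overlapped by a narrow margin, and the call was lost with normexp background correction (−0.13, adjusted p = 0.718) and in 3 of the 8 fits that left out 1 array. HSPA8, the constitutive HSP70 of the cytosol, was called at neither probe. Its changes were −0.23 (SE 0.12, adjusted p = 0.14) at A_73_P341276 and 0.43 (SE 0.22, adjusted p = 0.145) at A_73_115239, where CPE array 3 read 5.06 and the other CPE arrays 3.99 to 4.12. HSPA13, an HSP70-like protein of microsomes, had a change of 0.050 (SE 0.14). In the HSP110 class only HSPA4 was reliable. Its probes had changes of −0.35 (SE 0.18, adjusted p = 0.134) and 0.25 (SE 0.08, adjusted p = 0.025), so that 1 of 2 passed. That call was lost with normexp and in 4 of the 8 fits that left out 1 array. The probe that fell, A_73_101271, was called lower without CPE array 2 (−0.52, adjusted p = 0.0131), where the other probe was still called higher. It was also called lower over the whole array and with local centring (−0.18, adjusted p = 0.0278, where the median of all probes was 0.12).

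HSPD1, the ring subunit of the mitochondrial chaperonin, had the lowest adjusted p of the reliable chaperone probes at A_73_P094781. Levels were 1.54, 1.69, 1.89 and 1.69 in CPE and 0.46, 0.47, 0.47 and 0.78 in CONTROL. The groups were far apart, at a change of 1.16 (SE 0.11, 2.23-fold, adjusted p = 6.69e-05). Its neighbours moved by only −0.032, and local centring left 1.19. The probe with the higher mean, A_73_P129801, read 2.30, 2.33, 2.12 and 2.33 in CPE and 2.11, 2.09, 2.12 and 2.30 in CONTROL, a change of 0.12 (SE 0.09, adjusted p = 0.301). A_73_P129801 minus A_73_P094781 was 0.76, 0.64, 0.24 and 0.65 on the CPE arrays and 1.65, 1.62, 1.65 and 1.53 on the CONTROL arrays. That difference moved by −1.04 (SE 0.13, adjusted p = 0.00161). The neighbours of A_73_P129801 moved by −0.31, and with local centring it too was called higher, by 0.43, against 0.12 for the median of all probes. The probe that rose is printed whole and the other by its first 30 bases, because the 2 share an accession (NM_001166609) and changed by unequal amounts.
HSPD1 A_73_P094781: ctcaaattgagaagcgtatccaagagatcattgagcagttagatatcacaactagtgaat
HSPD1 A_73_P129801: aaggctggctgatgtttaagaaaataacta

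Probe A_73_121148 of HSPD1 was left out for an outlier mark. HSPE1, the lid of that chaperonin, had no reliable probe.

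TRiC, which folds actin and tubulin, had 4 readable genes of 10. TCP1, its first subunit, rose at both probes. A_73_P256166 had levels of 2.74, 2.99, 2.86 and 2.72 in CPE and 1.98, 1.70, 1.97 and 1.95 in CONTROL (change 0.93, SE 0.10, 1.90-fold, adjusted p = 0.000139). At A_73_103673 the levels were 4.08, 4.31, 4.22 and 4.20 in CPE and 3.64, 3.74, 3.74 and 3.82 in CONTROL (change 0.47, SE 0.08, 1.38-fold, adjusted p = 0.00179). All CPE arrays exceeded all CONTROL arrays at each probe, yet the 2 rises differed in size by 0.46 (SE 0.12, adjusted p = 0.0215). That difference was no longer called without CPE array 1 (adjusted p = 0.0517) or CONTROL array 2 (adjusted p = 0.0666). With normexp the smaller rise was 0.41 and no longer called (adjusted p = 0.072). The neighbours of A_73_P256166 moved by 0.16 and those of A_73_103673 by −0.11. After local centring the 2 changes were 0.77 and 0.58, where the median of all probes was 0.12.
TCP1 A_73_P256166: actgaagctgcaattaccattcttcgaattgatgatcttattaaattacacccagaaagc
TCP1 A_73_103673: tctggagcccttgatgcctgatctgtttat

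CCT5 was the other TRiC subunit that rose, and its 2 probes gave like values. A_73_P127386 read 1.25, 0.96, 1.21 and 1.20 in CPE and 0.56, 0.59, 0.53 and 0.77 in CONTROL, a change of 0.54 (SE 0.10, adjusted p = 0.00194). The change at A_73_120889 was 0.44 (SE 0.07, adjusted p = 0.00127), and the difference between the 2 changes was 0.098 (SE 0.11, adjusted p = 0.532). CCT2 had a change of 0.18 (SE 0.14, adjusted p = 0.332) and CCT8 of 0.12 (SE 0.10, adjusted p = 0.36). For CCT2, CPE array 3 read 2.90 and the other CPE arrays 3.45 to 3.54, above all CONTROL arrays; without array 3 the change was 0.33 (adjusted p = 0.00436). CCT3, CCT4 and CCT7 were lit on all 8 arrays at no probe.

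**Figure D2:**
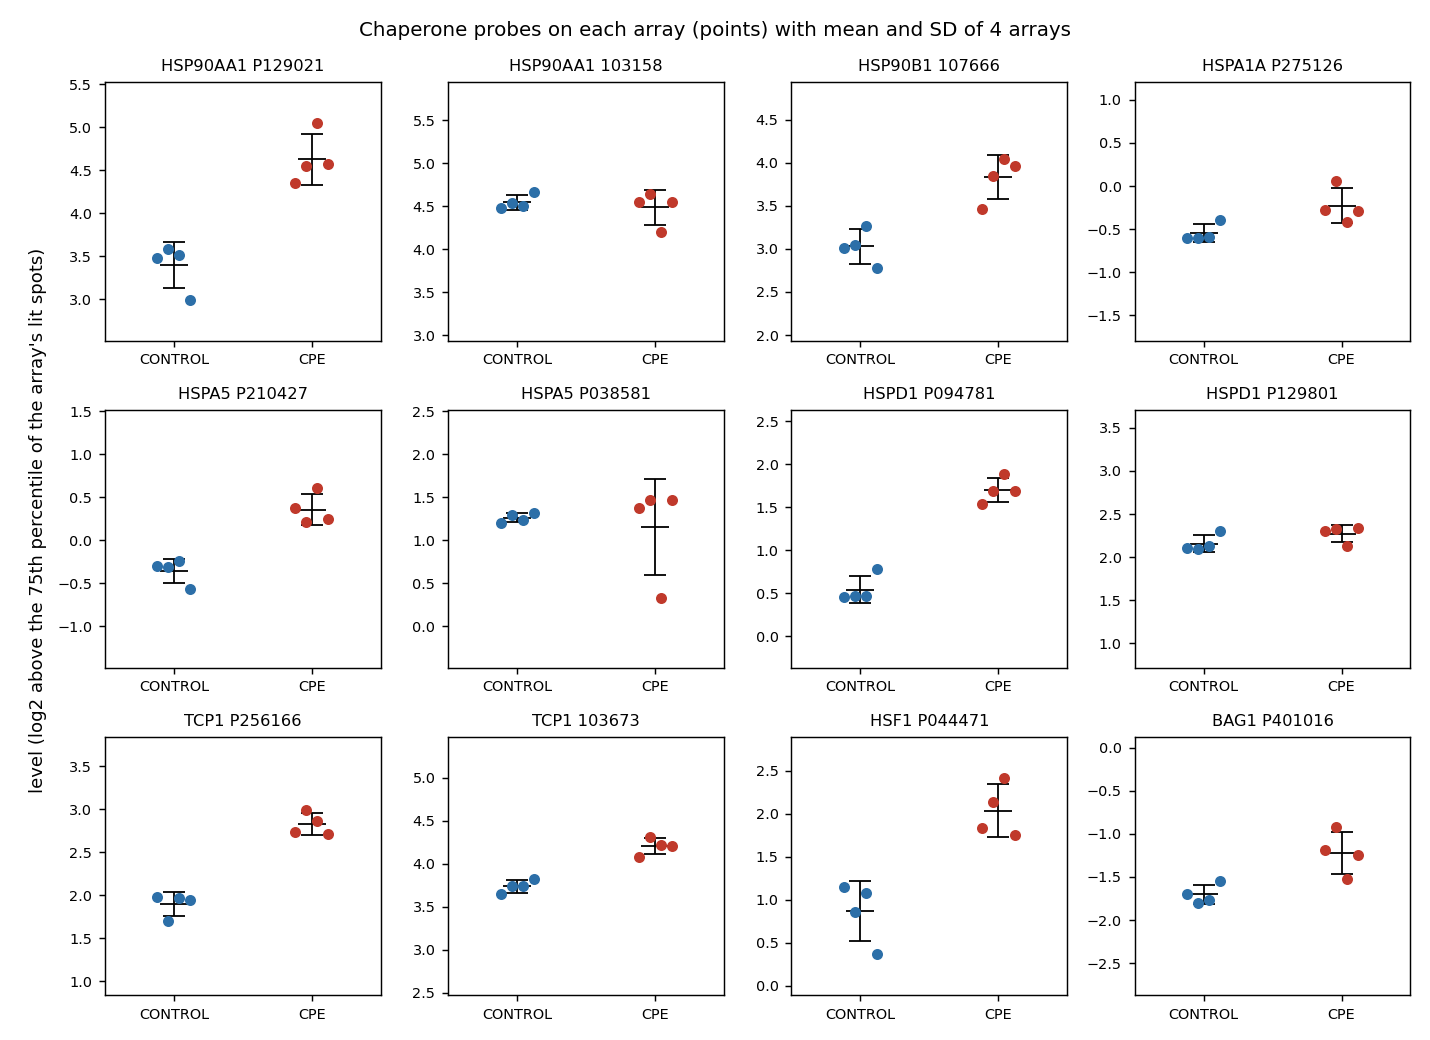
Level of 12 chaperone probes on each array (y axis), each panel spanning 3 log2 units. Levels are log2 above the array's 75th percentile over the spots lit on all 8 arrays. Means and SDs are those of the 4 CONTROL arrays (blue) and the 4 CPE arrays (red). HSP90AA1, HSPA5 and HSPD1 each have 1 probe with separated groups and 1 with overlapping groups, while TCP1 is separated at both.

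HSF1 was 2.25-fold higher at A_73_P044471 (change 1.17, SE 0.20, adjusted p = 0.00167). Its levels were 1.84, 2.14, 2.42 and 1.75 in CPE and 1.15, 0.87, 1.08 and 0.37 in CONTROL, without overlap. The 61 nearest lit spots moved by 0.70 in the same direction, the largest shift around any reliable chaperone probe. After local centring the change was 0.48, where the median of all probes was 0.12. The first 30 bases of the probe are shown because HSF1 rests on it alone.
HSF1 A_73_P044471: tacacgagtccccctttccccttccataga

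HSF2 had no reliable probe. BAG1, an exchange factor for HSP70, rose, with levels of −1.18, −0.92, −1.52 and −1.24 in CPE and −1.70, −1.80, −1.77 and −1.55 in CONTROL (change 0.48, SE 0.13, adjusted p = 0.0138). CPE array 3 was the lowest CPE array and lay just above CONTROL array 4. BAG4, which binds death receptors, had a change of −0.34 (SE 0.13) and was not called (adjusted p = 0.0518). Its neighbours moved by −0.34 as well. The change was −0.0051 after local centring, where the median of all probes was 0.12, and 0.0020 with normexp background correction. Without CPE array 3 it was −0.42 (adjusted p = 0.014). Of the small heat shock proteins only HSPB8, a partner of BAG3 in the clearing of misfolded protein, was reliable. At A_73_113698 it fell, from 1.40, 1.42, 1.36 and 1.61 in CONTROL to 0.84, 0.95, 0.74 and 0.78 in CPE (change −0.62, SE 0.09, 1.54-fold lower, adjusted p = 0.000587). At A_73_P324666 the change was −0.18 (SE 0.08, adjusted p = 0.0882), also without overlap. The 2 changes differed by 0.44 (SE 0.09, adjusted p = 0.011). The neighbours of A_73_113698 moved by −0.19 and those of A_73_P324666 by −0.041. After local centring the 2 changes were −0.43 and −0.14, where the median of all probes was 0.12.

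J-domain proteins formed the largest class, with 17 of 44 genes readable. By the probe with the highest mean, 7 rose, 3 fell and 7 passed neither way. These were 41.2% and 17.6% of the class, beside 24.4% and 22.8% of all genes. Among the 7 that rose, the groups overlapped at DNAJA3 (0.38, adjusted p = 0.0174) and DNAJC14 (0.24, adjusted p = 0.0434), named after their values had been seen. Their calls were lost in 3 and 6 of the 8 fits that left out 1 array, and that of DNAJC14 also with normexp or quantile scaling. Of the 3 type A genes, 2 rose. None of the 4 type B genes passed, among them the ER protein DNAJB11 (change 0.053, SE 0.07). The type C genes moved both ways, with 5 higher and 3 lower of 10.

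DNAJC27, a small GTPase with a J domain, rose most among them, with levels of 2.13, 1.99, 2.06 and 2.06 in CPE and 1.47, 1.31, 1.29 and 1.39 in CONTROL (change 0.70, SE 0.08, 1.62-fold, adjusted p = 0.00016). DNAJC21, which acts in ribosome maturation, rose by 0.51 (SE 0.12, adjusted p = 0.0078) and DNAJC18 by 0.43 (SE 0.13, adjusted p = 0.0254). DNAJA1, a partner of cytosolic HSP70, rose by 0.30 (SE 0.07, adjusted p = 0.00813), with arrays at 2.75 to 2.91 in CPE and 2.52 to 2.57 in CONTROL. For DNAJC18 and DNAJC21, CPE array 3 was the highest array. The calls of DNAJA1, DNAJC18 and DNAJC21 were lost with normexp, and that of DNAJC18 also in 3 of the 8 fits that left out 1 array.

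The 3 J-domain genes called lower were each separated on all arrays. DNAJC16 read −0.057, −0.0022, 0.52 and −0.074 in CPE and 1.01, 1.05, 1.00 and 1.07 in CONTROL (change −0.94, SE 0.13, 1.91-fold lower, adjusted p = 0.000641). DNAJC7, which links HSP70 to HSP90, had arrays at 1.80 to 1.88 in CPE and 2.29 to 2.71 in CONTROL (change −0.61, SE 0.10, adjusted p = 0.00138). DNAJC3 (P58IPK), an ER co-chaperone of HSPA5, had arrays at 1.07 to 1.18 in CPE and 1.48 to 1.68 in CONTROL (change −0.43, SE 0.08, adjusted p = 0.00221). Of the ER genes named at the outset, HSP90B1 was thus called higher and DNAJC3 lower, and HSPA5 was called at 1 of its 2 probes.

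DNAJC10 (ERdj5), a disulphide reductase of the ER with a J domain, had 3 reliable probes. It rose at A_73_P209777 (change 0.31, SE 0.10, adjusted p = 0.0301) and at A_73_P274691 (change 0.38, SE 0.08, adjusted p = 0.00438). The first of these calls was lost in 5 of the 8 fits that left out 1 array and with normexp, quantile scaling or the mean over probes, and the second was made in all 8. A_73_P467498 had a change of −0.0064 (SE 0.23, adjusted p = 0.983). A_73_P467498 and A_73_P274691 share 46 of their 60 bases, given in capitals.
DNAJC10 A_73_P467498: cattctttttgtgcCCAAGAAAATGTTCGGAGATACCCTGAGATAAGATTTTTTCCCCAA
DNAJC10 A_73_P274691: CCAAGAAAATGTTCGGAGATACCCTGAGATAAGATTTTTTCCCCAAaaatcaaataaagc

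In spite of that shared stretch, A_73_P467498 read 0.88, 1.00, −0.083 and 0.89 on CPE arrays 1 to 4 and A_73_P274691 read 0.37, 0.47, 0.28 and 0.40. The drop on CPE array 3 was thus large at the first and small at the second. The neighbours of A_73_P467498 moved by −0.48 between groups and those of A_73_P274691 by 0.043. The first minus the second was 0.57 to 0.76 on the CONTROL arrays, 0.49 to 0.53 on CPE arrays 1, 2 and 4, and −0.37 on CPE array 3. Their difference between groups was −0.38 (SE 0.21, adjusted p = 0.204), and −0.16 without CPE array 3 (adjusted p = 0.139).

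Unequal change within a gene could be examined in 11 chaperone genes, as 13 pairs of reliable probes. The difference between the 2 probes changed in 5 of the 13 pairs (38.5%), those of HSP90AA1, HSPD1, TCP1, HSPB8 and HSPBAP1, where 27% of all pairs did. The 2 changes had the same sign in 7 of 13 chaperone pairs, compared with 65.1% of all pairs. TCP1 and CCT5 were the 2 genes called the same way at every reliable probe. Without CPE array 3, 7 pairs passed, adding HSPA5 (−0.46, adjusted p = 0.0279) and DNAJA2 (−0.38, adjusted p = 0.0305). Without CPE array 2 the HSPA4 pair passed as well (−0.80, adjusted p = 0.0107). The TCP1 pair did not pass without CPE array 1 or CONTROL array 2.

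**Figure D3:**
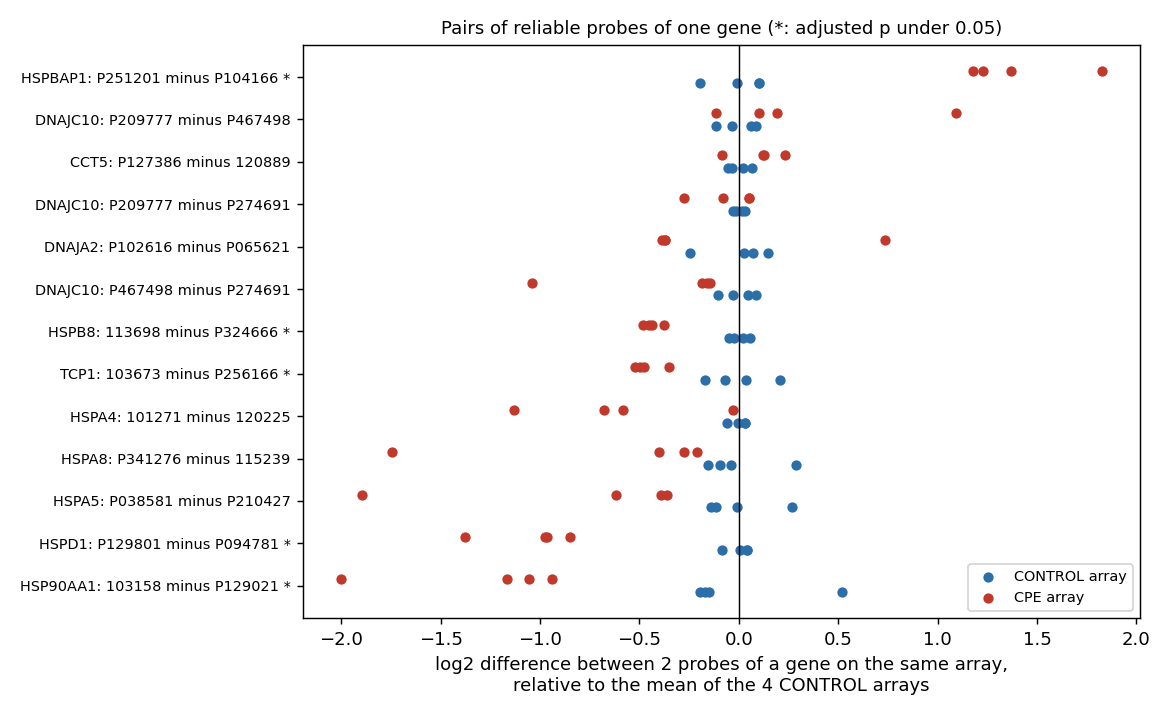
Difference between 2 reliable probes of a gene on the same array (log2, x axis), set relative to the mean of the 4 CONTROL arrays, for 13 pairs of chaperone probes; red points are CPE arrays, blue CONTROL arrays, and an asterisk marks an adjusted p under 0.05. The CPE arrays of HSP90AA1, HSPD1 and HSPBAP1 lie clear of 0, and 1 CPE array (array 3) stands alone in HSPA5, HSPA8, DNAJA2 and 2 of the DNAJC10 pairs.

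The surroundings of a spot moved with the change of its probe. Across the 49 probes the median shift of the 61 nearest lit spots ran from −0.48 to 0.70 and correlated with the change at r = 0.54, against r = 0.41 over all 7151 probes, as a description, since neighbouring spots share an array area. Local centring left all 19 gene calls in place and added others, to 24 of 37 genes higher and 7 lower (64.9% and 18.9%). With that centring 46.2% of all genes were called higher and 25.7% lower, and the median change of all probes was 0.12. At the 4 chaperone probes with a change over 1 log2 unit, the centred changes were 1.19 for HSPD1, 0.90 for HSP90AA1, 0.48 for HSF1 and −1.26 for HSPBAP1. The share of G and C in the probe, 35.0% to 55.0%, correlated with the change at r = 0.12.

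**Figure D4:**
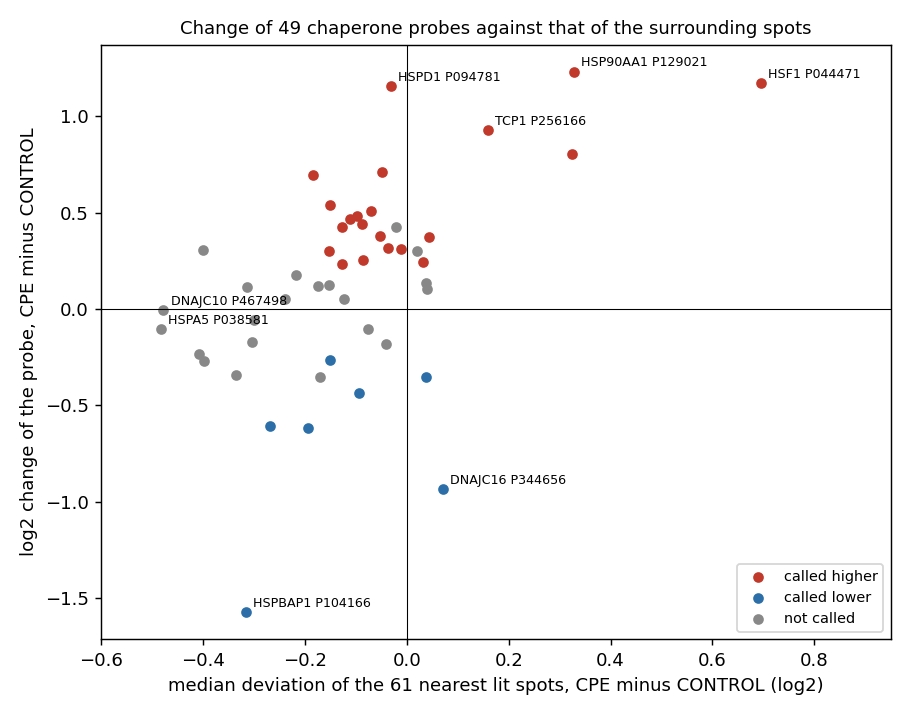
Log2 change of the 49 reliable chaperone probes (y axis) against the median deviation of the 61 nearest lit spots, CPE minus CONTROL (x axis, log2); red is called higher, blue lower, grey neither. HSF1 lies at the right edge (0.70), whereas HSPD1 A_73_P094781 combines a change of 1.16 with surroundings near 0.

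Names caught by their letters rather than by class were HSPBP1, HSPBAP1, HSPB11 and HSPG2. HSPBP1, an exchange factor of HSP70, had a change of 0.12 (SE 0.15), and HSPB11, now named IFT25 for its part in cilia, fell by 0.26 (SE 0.09, adjusted p = 0.0442). The HSPB11 call was lost in 7 of the 8 fits that left out 1 array, and with quantile scaling or normexp. HSPBAP1, named for binding HSPB1, read −2.34, −2.23, −2.94 and −2.24 in CPE and −0.99, −0.97, −0.89 and −0.60 in CONTROL at A_73_P104166, a change of −1.57 (SE 0.17, 2.98-fold lower, adjusted p = 0.000143). With normexp the change was −0.81, still called. The table gives that probe the HSPBAP1 symbol but no accession. At A_73_P251201 its change was −0.17 (SE 0.07, adjusted p = 0.0751). Without these names, 13 of 34 genes rose and 5 fell.

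The other 54 chaperone genes could not be read on all arrays. Of the 148 probes not lit throughout, 79 were lit on none of the 8 arrays, and 11 were well above background on all 8 in spite of dim surroundings, among them both probes of HSPB1. Heat-inducible genes in this set included HSPH1, DNAJB1, HSPB1 and BAG3, and HSPA9, the mitochondrial HSP70, was in it too. Of the 54 genes, 41 had no probe lit on all 8 arrays and 13 had one that was lit but too dim. At such probes 7 of these genes were too dim on all arrays and 6 on only some. Among the 6, CCT6A and DNAJC24 were well above background there on 4 CPE arrays and 3 CONTROL arrays. The testis J protein DNAJB3, the small heat shock protein HSPB3, DNAJA4 and CCT6B were among the 7. They were well above background on none of the 8 arrays at the probes lit throughout. Another probe of DNAJA4, lit on 3 CPE arrays, was well above background on 2. In all, 18 of the 91 genes were well above background on no array at any probe, which at these intensities does not show that they are silent.

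Other folding genes, not matched by the symbols above, were read in 29 of 57 cases. Of these, 5 were called higher, 3 lower and 21 neither, with a median change of 0.12. The shares called, 17.2% and 10.3%, lay below those of all genes (24.4% and 22.8%). HSBP1, which binds HSF1 and restrains it, rose by 1.01 (SE 0.09, adjusted p = 4.06e-05), with no overlap between the groups. Of 4 readable genes of prefoldin, which hands clients to TRiC, 3 rose. They were VBP1 (0.60, SE 0.09, adjusted p = 0.000879), PFDN4 (0.58, SE 0.10, adjusted p = 0.0014) and PFDN5 (0.52, SE 0.12, adjusted p = 0.00668). PDCL, a helper of TRiC, fell by 1.16 (SE 0.32, adjusted p = 0.0149), in surroundings that moved by −0.81. SUGT1 and TOMM34, co-chaperones of HSP90 and of HSP70, fell by 0.42 (SE 0.08, adjusted p = 0.00242) and 0.40 (SE 0.11, adjusted p = 0.0191).

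Of the 12 readable co-chaperones, 9 passed neither way, among them STIP1 (change 0.22, SE 0.15) and AHSA1 (0.22, SE 0.09). Of 9 other readable ER folding genes, 1 rose, which was MANF (0.27, SE 0.09, adjusted p = 0.0406), a call lost in 6 of the 8 fits that left out 1 array, and CALR and CANX had changes of 0.36 (SE 0.15) and 0.21 (SE 0.09). PFDN5, MANF and the uncalled genes of this list were named after their values had been seen. PDCL and TOMM34 lost their calls with normexp (−0.33 and −0.084), and TOMM34 also without CONTROL array 3 or CPE array 4. Without CPE array 3, 9 of these genes were called higher in place of 5.

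In whole blood, fewer cells of a type and less RNA per cell cannot be told apart, and markers of several cell types moved between the groups. A summed level weights each marker by the brightness of its probe, so the sums are given beside the calls of single markers. All 4 readable T cell markers (CD3D, CD3E, CD3G and CD5) rose, and their summed linear level, in multiples of the 75th percentile, was 24.4 to 27.1 on the CPE arrays and 15.2 to 15.9 on the CONTROL arrays. Of 3 NK cell markers, 2 rose and 1 fell, with sums of 34.0 to 38.8 and 16.9 to 19.8, of which GNLY made up 76.1% to 94.7%. KLRD1 (0.96) and GNLY (1.26) rose, and NKG7 changed by −0.78. PPBP, the only readable marker of 5 listed for platelets, rose, at 1.39 to 1.96 and 0.52 to 0.67. Of 3 neutrophil markers, 1 rose and 2 fell, with sums of 103.7 to 117.4 and 99.4 to 110.2, of which S100A12 made up 79.4% to 92.2%. S100A12 rose by 0.25, whereas CXCR2 and CSF3R changed by −0.99 and −0.92. Of 3 monocyte markers, 1 fell, with sums of 19.9 to 21.9 in CPE and 25.9 to 28.5 in CONTROL. None of the 3 B cell markers was called, at 31.4 to 38.3 and 33.5 to 36.6. HBB of red cells (103.7 to 166.9 and 99.8 to 123.3) and PTPRC of all white cells (9.70 to 32.6 and 6.17 to 12.1) were not called either. Among markers without a reliable probe, NCR1 of NK cells and SLC4A1 of red cells were well above background on 1 array at most. The 61 nearest lit spots moved by 0.59 for PPBP, −0.52 for NKG7, −0.45 for the monocyte marker CSF1R and −0.36 for CXCR2. Each of these shifts had the direction of its marker. For the other called markers the neighbours moved by −0.14 to 0.22. The part of cell composition in the chaperone changes was not tested.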

How the data were processed

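Agilent Feature Extraction 10.10.1.1, per the submitters' processing notes, produced the deposited spot intensity values of each array. Per the file headers, the processed signal is background-subtracted and spatially detrended intensity, not normalised between arrays. In the deposited table of the whole series, log2 group averages made by the authors stand beside probe names, symbols and sequences. Each array has 45220 spots, of which 1417 controls were left out, and 13097 were lit on all 8 arrays. A spot was lit when the 90th percentile of log2 raw intensity over its 61 nearest spots exceeded that array's 90th percentile of such values minus 1.5. The number of arrays limits the precision.

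Log2 processed signal was scaled to each array's 75th percentile over the spots lit on all 8 arrays. CPE was compared with CONTROL in limma 3.58.1 (R 4.3.3, two-sided, Benjamini-Hochberg over 7151 probes, threshold 0.05) after tests on simulated data. Differences between 2 probes of a gene were fitted likewise. Classical chaperone classes were named in full, J-domain genes by the 5 largest rises and falls with separated groups or by disagreeing probes, and other folding genes by the 3 largest each way. Members, lists and the definition of a lit spot were chosen with earlier results of these data known.

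Alternatives were quantile, median or no scaling, local centring, normexp with offset 50, other filters and lit limits (1, 2 or 121 neighbours), trended and robust variance, the replicate number as a block, the mean over probes, adjusted p under 0.01, treat at log2 0.5, leaving out each array, and the authors' averages. Normexp used raw medians in place of raw means. RefSeq gave a symbol for 189 of 215 probes, the same in 188. Positions are not given, since the array and the reference annotation differ in build.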

Additional observations from a re-analysis of the deposited data

Results flagged for a closer look

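In 23 of 98 sets of 4 arrays (49 chaperone probes in 2 groups), 1 array stood far from the other 3 by Dixon's test, where chance flags about 1 set in 20. CPE array 3 accounted for 12 of them and CONTROL array 4 for 8.

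CPE array 3 was the low array at HSPA5 A_73_P038581 (0.32), DNAJB6 (−1.36), DNAJC10 A_73_P467498 (−0.083), DNAJC14 (−1.03), DNAJC8 (0.082), CCT2 (2.90), HSPD1 A_73_P129801 (2.12) and HSPBAP1 A_73_P104166 (−2.94). It was the high array at HSPA8 A_73_115239 (5.06), DNAJA2 A_73_P102616 (0.22), DNAJC16 (0.52) and DNAJC21 (−1.90).

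CONTROL array 4 was the high array at HSPA4 A_73_101271 (2.65), HSPA1A (−0.40), DNAJA3 (0.58), DNAJC3 (1.68), HSPD1 A_73_P094781 (0.78) and A_73_P129801 (2.30), and HSPB11 (−0.81), and the low array at HSPBP1 (1.02). The other 3 flags were CONTROL array 1 at DNAJB11 (−0.034, low), CPE array 2 at DNAJC3 (1.18, high) and CONTROL array 2 at TCP1 A_73_P256166 (1.70, low).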

How the results depend on the processing

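The main counts were 13 chaperone genes higher and 6 lower, 5 and 3 other folding genes, and a chaperone median of 0.12. Without scaling between arrays they were 1 and 3, 1 and 1, and −0.063, where all probes had a median of −0.18; HSF1, DNAJC16, DNAJC7 and HSPB8 kept their calls. Local centring gave 24 chaperone and 18 other folding genes higher and a median of 0.28. Normexp gave 8 chaperone genes higher and 1 other folding gene lower. Over the whole array, dim areas included, no chaperone gene was higher (0) and 11 were lower, 0 and 6 of the other folding genes were, and the chaperone median was −0.99 where that of all probes was −1.05. The authors' deposited averages gave a chaperone median of −1.01, 0.12 above that of all reliable probes. With a lit limit of 1, and likewise with the mean over probes, 8 other folding genes were higher. At an adjusted p under 0.01, 7 chaperone genes were higher and 1 other folding gene lower. A minimum change of log2 0.5 (treat) left 0 and 0 chaperone genes, and 1 and 0 other folding genes.

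Local centring turned the uncalled changes of HSP90AA1, HSPA5, HSPA8 and HSPBAP1 into calls in the opposite direction (0.12, 0.26, 0.059 and 0.012 above the median of all probes). The mean over probes did so for HSP90AA1 (0.59) and HSPA5 (0.30), whose other probe rose, and leaving out CPE array 3 for HSPA5, whose change was −0.21 to 0.17 with 1 array left out. Leaving out each array in turn gave 8 to 16 chaperone genes higher and 4 to 7 lower, 4 to 9 and 2 to 4 other folding genes, and medians of 0.10 to 0.16. Relative to the median of all probes where that median moved by over 0.1, each of the 19 chaperone genes called kept its direction in the settings above in which it was tested.

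Same-numbered arrays of the 2 groups correlated at −0.11, −0.17, 0.29 and 0.41 in their deviations from the group means. Arrays of different number correlated at −0.43 to 0.29. With so few arrays, of which CPE array 3 and CONTROL array 4 stood apart, these values cannot decide whether the numbers pair the samples. With the number as a replicate block, 11 chaperone genes were higher and 5 lower, and the calls of HSPA1A, DNAJC14 and HSPB11 were lost. Apart from the settings named here, the causes of these shifts were not tested.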
